A study of Rattus norvegicus with 30 samples.

Results

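The genes followed here are 10 secretory and mucin genes of the airway lining, namely Scgb1a1, Scgb3a1, Scgb3a2, Muc1, Muc5b, Muc5ac, Bpifa1, Bpifb1, Cldn10 and Pigr. They were chosen by symbol, and all 10 were found among the 22914 genes with deposited counts and passed the filter on low counts, which kept 15934 genes. Each of the 30 libraries came from the lung of a different Sprague Dawley rat, all male and 8 weeks old, with 3 rats in each of 10 groups. In the Sham groups the pancreas was only turned over, in the Con groups saline was run into the biliopancreatic duct, and in the SAP (severe acute pancreatitis), DEX and Emo groups the duct received 5.0% sodium taurocholate, a bile salt. DEX rats had 10 mg/kg dexamethasone, a synthetic glucocorticoid, by vein, and Emo rats had emodin, a plant anthraquinone, by stomach tube (10 mg/kg in the label descriptions and 40 mg/kg in the protocol), at 2 and 12 hours. Lungs were taken at 6 or 24 hours, so that rats killed at 6 hours had been dosed once, and the remaining groups had the vehicles of both drugs. All rats had fasted for 12 hours. A portion of the lung was fixed, saline was run in through the pulmonary artery, and the rest of the lung was frozen. Which part of the lung gave the RNA is not stated in the sources used here. Such a sample is a mixture of airway, alveolar, blood and vessel cells.

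Club cells are the secretory cells of the small airways. They release secretoglobins, small proteins of the airway fluid led by Scgb1a1 (the club cell secretory protein), and can give rise to ciliated cells and to mucous cells. Mucus itself is built from gel-forming mucins (Muc5b and Muc5ac), while Muc1 is a mucin anchored in the cell membrane. Bpifa1 and Bpifb1 are secreted host defence proteins of the upper and large airways, Cldn10 is a tight junction protein found in club cells, and Pigr is the receptor that carries polymeric immunoglobulins across the epithelium.

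Libraries held 16813949 to 34692306 reads on genes, and the 10 genes took 1.28% to 3.31% of them, nearly all from Scgb1a1 (1.08% to 3.13%). Lung markers were present throughout, as Sftpc (alveolar type 2 cells) stood at 12733.2 to 30190.63 FPKM and Ager (alveolar type 1 cells) at 367.94 to 1892.83 FPKM (fragments per kilobase of gene and depth of the library, a scale on which genes can be set side by side per length). Of the ciliated cell markers Tekt1 stood at 9.14 to 23.87 FPKM and Dnah5 at 0.06 to 0.3. Of the basal airway cell markers Krt14 stood at 30.2 to 160.95 FPKM, while Krt5 never passed 1.1 FPKM and was listed at 0 in 1 library. As these are bulk samples, fewer cells of a type and less RNA per cell cannot be told apart.

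The stretches of 250 bases before the gene start are shown for 4 genes on which the results turn. Scgb1a1 was the most abundant, Scgb3a1 and Bpifa1 moved together between rats, and Cldn10 was higher in DEX-6h than in SAP-6h and Emo-6h. They are RefSeq sequences of the rat build GRCr8 and are read 5′ to 3′ in the direction of the gene, and 8 of the 10 genes had an entry. Scgb1a1 lies on the minus strand at chr1:215409687-215409936, and the plus-strand stretches are chr10:34468916-34469165 for Scgb3a1, chr3:163087715-163087964 for Bpifa1 and chr15:102269608-102269857 for Cldn10. Capitals mark letters searched on both strands for factors known from airway secretory genes or for the glucocorticoid receptor. They were TGTTTAC or TATTTAC or TGTTTGC or TATTTGC (FOXA), TTNNGNAA (C/EBP), CTCAAG or CACTTG (NKX2-1) and AGAACA (a glucocorticoid receptor half-site).
Scgb1a1: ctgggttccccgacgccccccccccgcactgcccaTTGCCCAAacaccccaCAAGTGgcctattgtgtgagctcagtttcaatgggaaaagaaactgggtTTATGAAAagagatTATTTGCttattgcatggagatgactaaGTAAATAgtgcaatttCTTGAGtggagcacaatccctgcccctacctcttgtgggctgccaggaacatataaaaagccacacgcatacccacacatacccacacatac
Scgb3a1: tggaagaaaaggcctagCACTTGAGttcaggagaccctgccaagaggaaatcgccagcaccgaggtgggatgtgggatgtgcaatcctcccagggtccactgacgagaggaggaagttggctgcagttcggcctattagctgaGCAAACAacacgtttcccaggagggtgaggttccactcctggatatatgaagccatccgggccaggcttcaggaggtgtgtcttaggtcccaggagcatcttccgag
Bpifa1: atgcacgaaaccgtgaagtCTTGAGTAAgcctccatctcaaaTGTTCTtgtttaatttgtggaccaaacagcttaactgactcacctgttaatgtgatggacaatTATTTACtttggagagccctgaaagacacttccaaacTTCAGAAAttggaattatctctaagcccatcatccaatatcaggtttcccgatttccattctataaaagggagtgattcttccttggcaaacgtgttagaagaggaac
Cldn10: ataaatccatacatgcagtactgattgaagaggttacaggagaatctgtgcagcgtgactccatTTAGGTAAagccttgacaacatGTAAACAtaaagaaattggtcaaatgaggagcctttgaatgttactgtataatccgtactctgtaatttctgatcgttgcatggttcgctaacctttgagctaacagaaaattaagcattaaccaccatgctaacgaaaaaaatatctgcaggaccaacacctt
The FOXA letters were present before 5 of the 8 genes, against 12.2% of 33469 promoters of the same length. The C/EBP letters were present before 4 of 8 genes, against 37.2% of promoters, and the NKX2-1 letters before 4 of 8, against 22.9%. The glucocorticoid receptor half-site was found before 3 of 8 genes (Scgb3a2, Bpifa1 and Bpifb1), against 17.5% of promoters. All 4 stretches printed hold the FOXA letters, starting 136 and 108 bases before the start of Scgb1a1, 107 before Scgb3a1, 145 before Bpifa1 and 164 before Cldn10. Some matches overlap, as CACTTG and CTTGAG do before Scgb3a1 and CTTGAG and TTGAGTAA before Bpifa1. A match only describes the sequence, and the half-site letters were not in the window printed for Cldn10.

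Levels differed widely among the 10 genes. Scgb1a1 had the highest mean FPKM of all 22907 genes with FPKM values (31020 over the 30 libraries), followed among these genes by Scgb3a2 (600.9), Scgb3a1 (236.1), Pigr (161.3), Muc1 (156.8), Bpifa1 (153.9), Bpifb1 (61.5), Cldn10 (17.2), Muc5b (5.19) and Muc5ac (0.25). Between libraries, Pigr ranged from 100.15 to 228.91 FPKM (2.29-fold), Scgb3a2 from 372.39 to 901.26 (2.42-fold), Scgb1a1 from 16319.65 to 46741.53 (2.86-fold), Muc1 from 80.98 to 241.62 (2.98-fold) and Cldn10 from 9.54 to 36.38 (3.81-fold). The remaining genes varied far more. Muc5b ranged over 21.8-fold (0.76 to 16.54 FPKM), Scgb3a1 over 71.2-fold (11.59 to 825.02), Bpifb1 over 149-fold (1.6 to 238.14) and Bpifa1 over 2116-fold (0.33 to 698.24), which came to 13 to 31858 reads. The lowest Bpifb1 value came from 1 library, Sham-24h replicate 3 (95 reads), and the next lowest was 13.0 FPKM in SAP-24h replicate 1. Within groups its ratio of highest to lowest rat was 35.1 in Sham-24h and 1.75 to 6.48 in the others.

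**Figure D1:**
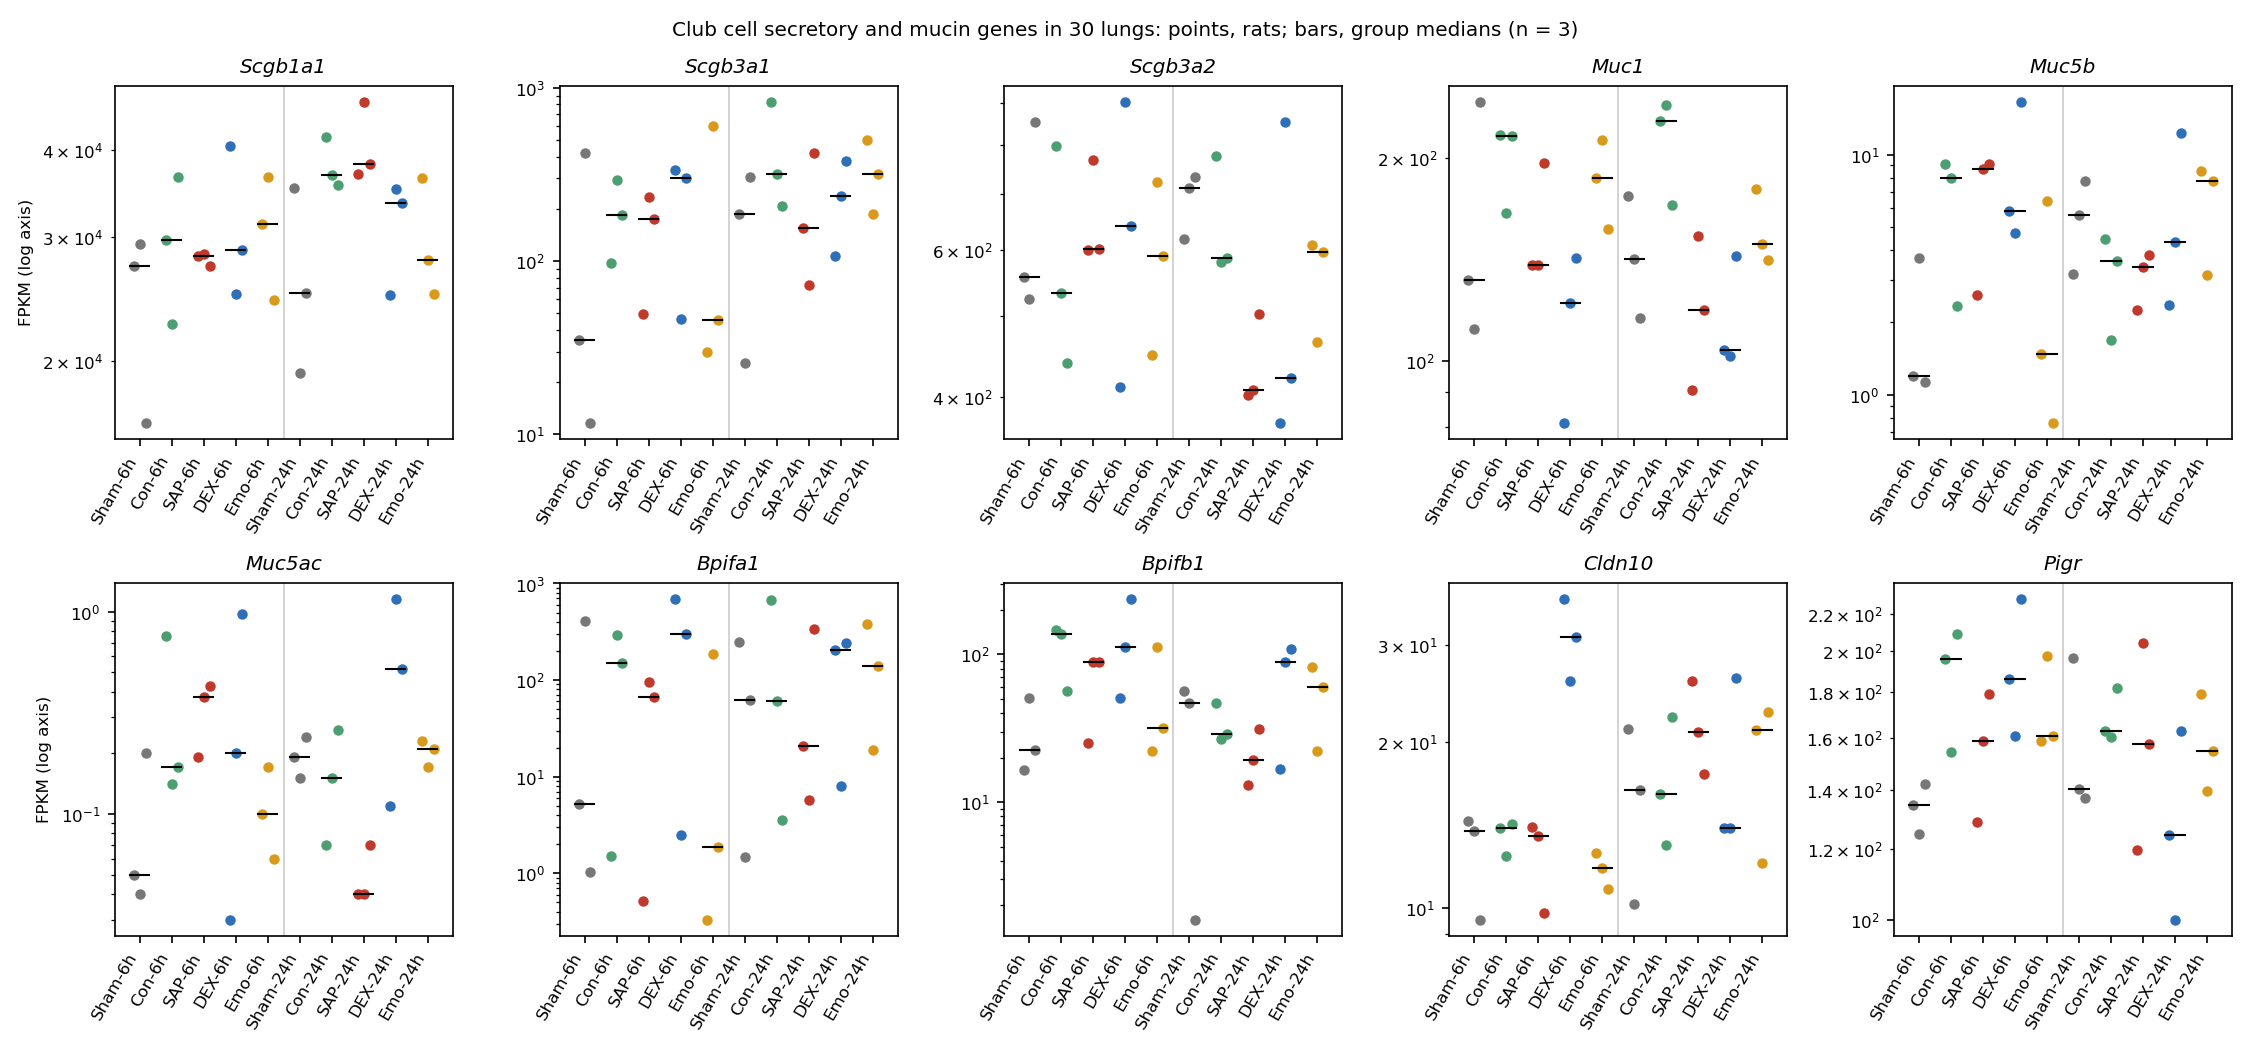
FPKM (log axis, a separate scale for each gene) of the 10 genes in each rat (points) of the 10 groups, with the group median as a bar and the 6-hour groups to the left of the grey line. Bpifa1 spreads from 0.33 to 698.24 FPKM with low and high rats side by side in most groups, while Pigr stays within 100.15 to 228.91.

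For Muc5b, Scgb3a1, Bpifb1 and Bpifa1 most of this variation lay between rats of the same group. The same held for Scgb1a1, Pigr, Muc5ac and Scgb3a2, so it did not set the widely varying genes apart. On the log2(FPKM + 1) scale the share between groups was 43.4% for Scgb1a1, 42.7% for Pigr, 37.45% for Muc5ac and 26.7% for Scgb3a2. For Scgb3a1 it was 26.3%. Of the variance of Muc1, 55.8% lay between the groups. The within-group SD of log2(FPKM + 1) was 3.43 for Bpifa1, 1.55 for Scgb3a1, 1.21 for Bpifb1 and 0.77 for Muc5b, against a median of 0.19 over 12281 genes with a mean of at least 1 FPKM and reads in every library. Bpifa1 thus stood at the 99.99th percentile of these genes, Scgb3a1 at the 99.8th, Bpifb1 at the 99.4th and Muc5b at the 97.7th. The place of Bpifb1 includes its low value in Sham-24h replicate 3 and was not calculated without it. Of the variance of Bpifa1, 12.7% lay between the 10 groups, whereas the median gene had 59.7% there. For Cldn10 the share was 65.7% and its within-group SD was 0.34, so Cldn10 was the gene among the 10 that followed the groups most. For Muc5ac, whose values lie near or below the added 1, this scale understates the spread.

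**Figure D2:**
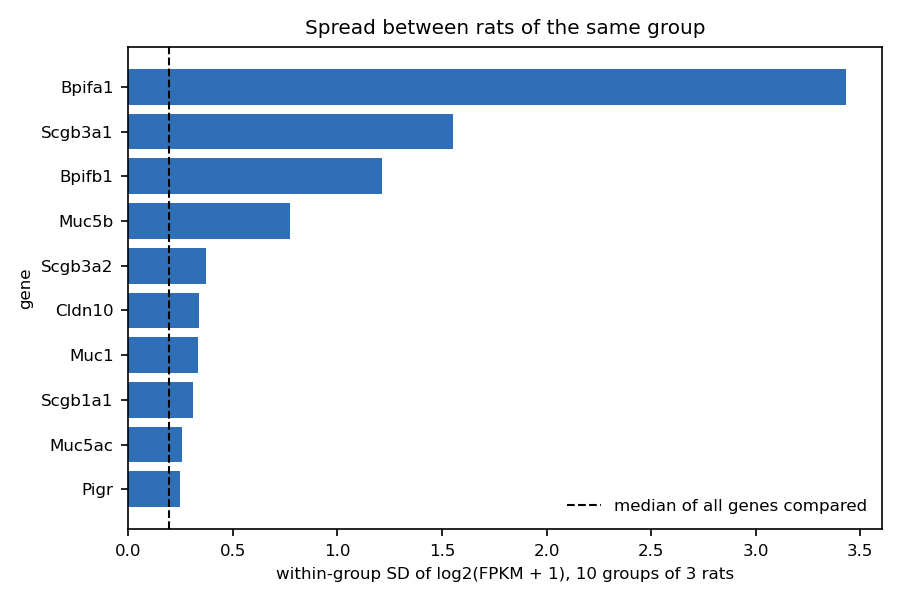
Within-group SD of log2(FPKM + 1) of each gene (bars, 10 groups of 3 rats), with the median of all 12281 genes compared as a dashed line at 0.19. Bpifa1 has the longest bar at 3.43, and all 10 bars pass the line.

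Bpifa1 (also called SPLUNC1) was near absent in some rats and abundant in others of the same group. In Sham-6h it was 5.22, 405.35 and 1.03 FPKM, in SAP-6h 0.52, 94.37 and 67.31, and in DEX-6h 698.24, 2.47 and 303.29. In Con-24h it was 674.9, 60.97 and 3.59 FPKM, in SAP-24h 20.73, 5.67 and 336.2, and in DEX-24h 204.27, 7.95 and 243.36. Every group held a rat at least 20-fold above another, the ratio of highest to lowest being 20.3 in Emo-24h and 562 in Emo-6h. Accordingly the groups overlapped widely, and the 95% confidence interval of the log2 fold change in DEX-6h vs SAP-6h ran from -2.16 to 7.46 (adjusted p = 0.767, edgeR's quasi-likelihood test).

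Scgb3a1, a secretoglobin of the larger airways, went up and down with Bpifa1. It was 34.75, 417.17 and 11.59 FPKM in the 3 rats of Sham-6h and 97.86, 292.41 and 183.26 in Con-6h, where replicate 2 was highest in both genes. It was 332.65, 46.5 and 302.11 FPKM in DEX-6h and 825.02, 315.51 and 206.49 in Con-24h. The rat with the highest Bpifa1 was also the rat with the highest Scgb3a1 in 9 of 10 groups, and the same held for the lowest rat in 9 of 10 groups. After the group means were removed, the correlation over 30 libraries was r = 0.87 (Spearman's rho = 0.86, permutation within groups, p = 4e-05, adjusted p = 0.0018 over 45 pairs of the 10 genes), and it was 0.85 without the 2 libraries farthest from the median. Within the 15 libraries at 6 hours r was 0.93 and within the 15 at 24 hours it was 0.77.

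Of the 45 pairs, 2 more had an adjusted p under 0.05 by Pearson's r, and Muc5b and Bpifb1 had one by rho only (rho = 0.71, permutation p = 0.00111, adjusted p = 0.0136, and r = 0.53, permutation p = 0.0112, adjusted p = 0.126). For this pair r was 0.91 within 6 hours and 0.23 within 24 hours. At 24 hours Sham-24h replicate 3 stood out, with Bpifb1 at 1.6 FPKM (95 reads) against 56.1 and 46.73 in its group. Its Muc5b was the highest of that group (7.76 FPKM). In Con-24h, SAP-24h, DEX-24h and Emo-24h the rats had the same order in both genes. The correlation at 24 hours without that library was not calculated. Muc1 and Pigr, both membrane proteins of the epithelial surface, had r = 0.65 within groups (rho = 0.68, permutation p = 0.00073, adjusted p = 0.0164), and 0.72 without the 2 farthest libraries. Scgb3a1 and Muc5b had r = 0.61 (rho = 0.64, permutation p = 0.00304, adjusted p = 0.0456), and 0.51 without the 2 farthest. Scgb1a1 and Scgb3a2, both secretoglobins, had r = -0.23 (rho = -0.11, permutation p = 0.332, adjusted p = 0.508).

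Markers of neighbouring cell types moved with several of these genes. Within groups, and over 40 relations of the 10 genes with the mean log2 level of 4 lists, 9 had an adjusted p under 0.05 by Pearson's r. The list of ciliated cells (21 genes found) went with Muc5b at r = 0.84 (rho = 0.83, permutation p = 2e-05, adjusted p = 0.0008, 0.82 without the 2 farthest libraries). It also went with Scgb3a1 (r = 0.67, rho = 0.64, permutation p = 0.0002, adjusted p = 0.00267), Bpifa1 (r = 0.58, rho = 0.55, permutation p = 0.00581, adjusted p = 0.0258) and Bpifb1 (r = 0.55, rho = 0.70, permutation p = 0.00411, adjusted p = 0.0235). Basal airway cell genes went with Muc5b (r = 0.62, rho = 0.62, permutation p = 0.00487, adjusted p = 0.0243).
The list of alveolar type 2 cells (10 genes) instead went with Muc1 at r = 0.80 (rho = 0.81, permutation p = 7e-05, adjusted p = 0.0014) and with Pigr at r = 0.67 (rho = 0.65, permutation p = 0.00172, adjusted p = 0.017). It further went with Muc5ac (r = 0.54, rho = 0.70, permutation p = 0.00409, adjusted p = 0.0235), and alveolar type 1 cell genes went with Muc1 (r = 0.64, rho = 0.54, permutation p = 0.00212, adjusted p = 0.017). By rho alone, Muc5ac also went with alveolar type 1 cell genes (rho = 0.50, permutation p = 0.0083, adjusted p = 0.0332, and r = 0.41, permutation p = 0.0326, adjusted p = 0.0932). Scgb1a1, Scgb3a2 and Cldn10 had no relation to a list with an adjusted p under 0.05. The part of these cell types in the spread between rats was not tested.

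The libraries also fell into 2 sets by heart muscle genes, a list of 8 such as Tnnt2 and Tnni3, which in rodents are active in the muscle sleeve of the pulmonary veins as well as in the heart. In 13 libraries from 9 groups their summed level was 7.46 to 49.95 FPKM, and in 17 libraries from 10 groups it was 112.7 to 326.2, with none between. Bpifa1 had a median of 2.47 FPKM in the first set (0.33 to 60.97) and 243.4 in the second (18.65 to 698.24), so that the sets overlapped only between 18.65 and 60.97. Scgb3a1 had medians of 49.24 and 305.9 FPKM (11.59 to 315.51 and 107.43 to 825.02). These sets were drawn after the values had been seen and were not groups of the study, so no test was made between them.
The correlation of Scgb3a1 with Bpifa1 over 30 libraries spans both sets. As a description of sets drawn on the heart muscle sum itself, which narrows its range, and on log2 levels with the group means left in, r of Scgb3a1 with Bpifa1 was 0.73 in the 13 libraries and 0.53 in the 17 (0.58 and 0.55 without the 2 farthest). For Bpifa1 with the heart muscle genes it was 0.15 and 0.27 (-0.01 and 0.49 without the 2 farthest), and for Scgb3a1 with them 0.11 and -0.06 (0.03 and 0.21). The part of the tissue that carries heart muscle genes in the spread of Bpifa1 and Scgb3a1 was not tested.

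**Figure D3:**
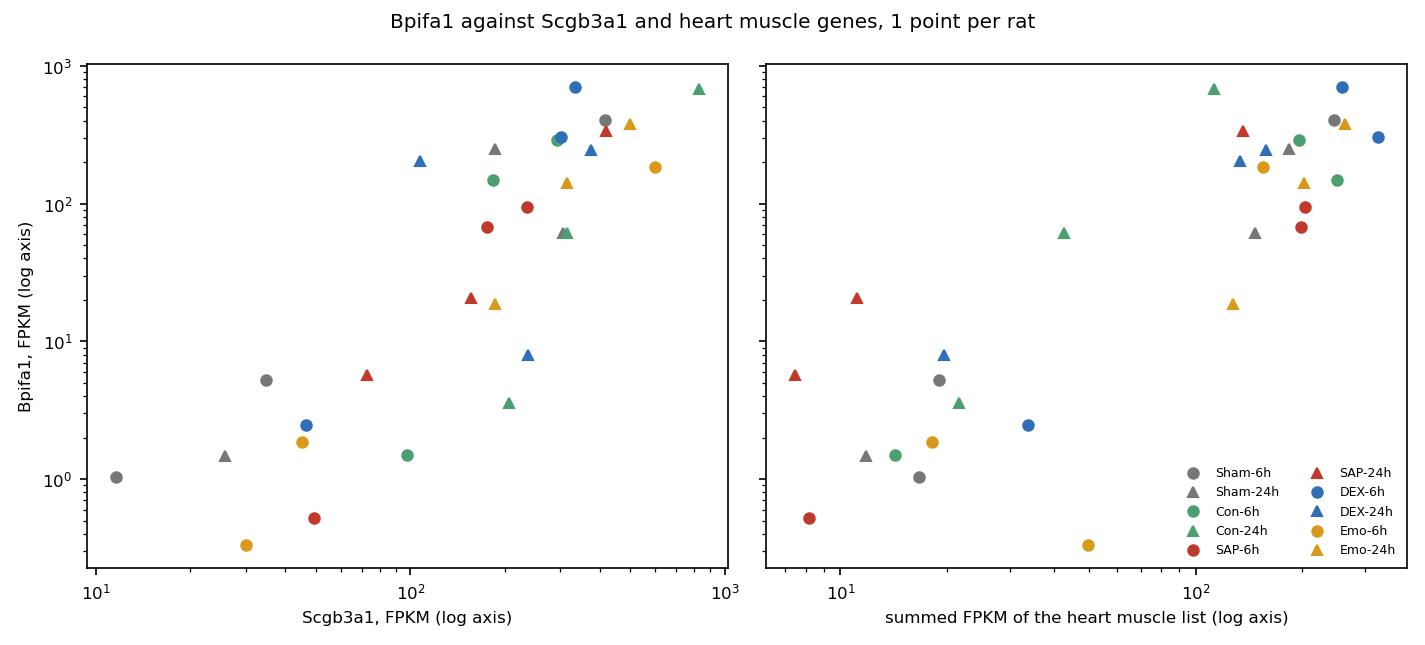
Bpifa1 (vertical log axis, FPKM) against Scgb3a1 (left, log axis, FPKM) and against the summed heart muscle genes (right, log axis, FPKM), 1 point per rat, with colours for treatment, circles for 6 hours and triangles for 24 hours. On the left the points form a rising band, and on the right 13 libraries at 7.46 to 49.95 stand apart from 17 at 112.7 to 326.2.

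The genes with the most similar course over the 30 libraries (Pearson's r of log2(FPKM + 1), a description over libraries that share groups) differed between the 10 genes. For Muc5b they were Iqca1 (r = 0.90), Ccdc181, Cdh26, Wdr27 and Ak9 (each 0.87), and for Bpifb1 they were Ak8 (r = 0.73), C1qtnf9, Rtdr1, Ccdc60 and Wdr38. Muc1 was nearest to Ptk7 (r = 0.89), Pwwp2b, Mansc1, Capn5 and Jup, the last a protein of cell junctions. Scgb1a1 was nearest to Cyp2s1 (r = 0.80), a cytochrome P450, followed by AABR07030598.1, Phf2, Epas1 and Mtmr3. Scgb3a2 was nearest to Ccno (r = 0.71), which is needed for multiciliated cells, RGD1563941, Cnpy2, Gsta4 and Zdhhc4.
Scgb3a1 had Bpifa1 as its nearest gene (r = 0.84), before Pnmal2, Vwa3a, Stmnd1 and AABR07005593.1. The 5 nearest genes of Bpifa1 were Tnnt2 (r = 0.90), Tnni3, Sln, Myl7 and Myoz2, all of striated muscle. These values, like that of Scgb3a1 and Bpifa1, span the 2 sets of libraries described. Pigr was nearest to LOC691909 (r = 0.76), Lrig1, Tbc1d22a, Pygb and Ppp1r16a. Cldn10 was nearest to AC125248.1 (r = 0.67), Rdh16, Egln3, Lins and Zbtb39, and Muc5ac, with a mean under 1 FPKM, was not searched.

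Treatment effects were asked in 17 comparisons of groups and 3 interactions with time, with edgeR (quasi-likelihood test, Benjamini-Hochberg adjustment across the genes tested). Calls needed both a change of 2-fold or more and an adjusted p below 0.05. Of 170 tests of the 10 genes in the 17 comparisons 3 were called, while 23 had an unadjusted p under 0.05, as did 22% of the tests of all genes. The 3 calls were Cldn10 higher in DEX-6h than in SAP-6h, Cldn10 lower in Emo-6h than in DEX-6h, and Muc5ac higher in DEX-24h than in SAP-24h.

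At 6 hours, SAP and emodin left the 10 genes without a call. In SAP-6h vs Sham-6h 0 of 10 were called, against 0.22% of all genes tested, in SAP-6h vs Con-6h 0 of 10 (0.163%), in Con-6h vs Sham-6h 0 of 10 (0%) and in Emo-6h vs SAP-6h 0 of 10 (0.0251%). With an unadjusted p and a 2-fold change, 1 of the 10 would have passed in SAP-6h vs Sham-6h (Muc5b, with 3.91% of all genes) and 3 in Con-6h vs Sham-6h (Muc5b, Muc5ac and Bpifb1, with 1.79%). None would have in SAP-6h vs Con-6h (2.65%) and Emo-6h vs SAP-6h (2.85%). DESeq2 called 0 in all 4, with 1.24% of all genes in SAP-6h vs Sham-6h, 0.619% in SAP-6h vs Con-6h, 0.0175% in Con-6h vs Sham-6h and 0.159% in Emo-6h vs SAP-6h. Muc5b, the main mucin of healthy airways, was 1.2, 3.71 and 1.13 FPKM in Sham-6h, 9.09, 7.98 and 2.33 in Con-6h and 2.6, 8.69 and 9.1 in SAP-6h. The Con-6h and SAP-6h rats reached higher than the Sham-6h rats, with 1 rat of each inside the Sham-6h range, and the log2 fold change in SAP-6h vs Sham-6h was 1.80 (SE 0.74, adjusted p = 0.283). All 21 ciliated cell genes had positive log2 fold changes in both SAP-6h vs Sham-6h (median 0.89, 1 called) and Con-6h vs Sham-6h (median 0.71, 0 called), with sums of 538.7 to 674.0 FPKM in Sham-6h, 755.4 to 900.4 in Con-6h and 582.6 to 714.9 in SAP-6h. The 1 call was lost in a model of the compared groups alone, where 0 of 14862 genes were called in SAP-6h vs Sham-6h. The part of ciliated cells in the values of Muc5b was not tested.

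Cldn10 was up-regulated in DEX-6h. It was 36.38, 25.85 and 31.0 FPKM in DEX-6h, 14.04, 13.51 and 9.81 in SAP-6h, 12.62, 11.83 and 10.86 in Emo-6h, 14.4, 13.8 and 9.54 in Sham-6h and 13.96, 12.43 and 14.2 in Con-6h. The 3 DEX-6h rats were all above the 12 other rats at 6 hours, which lay between 9.54 and 14.4. Groups without overlap in FPKM were seen for 17.5% of all genes in DEX-6h vs SAP-6h and for 21% in Emo-6h vs DEX-6h. Against SAP-6h the log2 fold change was 1.31 (SE 0.28, 2.48-fold, 95% confidence interval 0.73 to 1.89, adjusted p = 0.0262, edgeR's quasi-likelihood test), and Cldn10 was the 1 gene called of 10, against 0.515% of all genes. In Emo-6h vs DEX-6h it fell by 1.41 (SE 0.28, 2.65-fold, adjusted p = 0.00932), again 1 of 10, against 1.41% of all genes.
The size of this change was steady and its call was not. Leaving out each library in turn gave log2 fold changes of 1.16 to 1.45 in DEX-6h vs SAP-6h, and the adjusted p (edgeR) rose to 0.127 without DEX-6h replicate 1, 0.0778 without DEX-6h replicate 3, 0.117 without SAP-6h replicate 2 and 0.148 without SAP-6h replicate 3. In Emo-6h vs DEX-6h the adjusted p rose to 0.0565 without DEX-6h replicate 1 and stayed under 0.05 otherwise. Beside it, the summed level of the 10 basal airway cell genes was 192.5 to 351.3 FPKM in DEX-6h and 130.0 to 132.6 in SAP-6h, while 3 of the 10 had a positive log2 fold change (median -0.09) and none was called, and that of the 21 ciliated cell genes was 541.2 to 808.5 and 582.6 to 714.9. In Emo-6h the basal genes summed to 90.55 to 121.2 FPKM, below all DEX-6h rats, and 1 of 10 was called in Emo-6h vs DEX-6h (Aqp3, log2 fold change -2.90, SE 0.79, adjusted p = 0.0463, edgeR). In that comparison 3 of 10 basal genes (median -0.77) and 1 of 21 ciliated cell genes (median -0.44, none called) had a positive log2 fold change, the ciliated sums being 447.5 to 838.2 FPKM in Emo-6h. Likewise 0 of the 8 heart muscle genes had a positive log2 fold change (median -1.81, none called), with sums of 18.06 to 154.5 FPKM in Emo-6h and 33.72 to 326.2 in DEX-6h. Krt5 and Tp63, which define basal cells, were at or near 0 (at most 1.1 and 0.27 FPKM), whereas Krt14 of the same list stood at 30.2 to 160.95 FPKM. The part of these cells in either result was not tested.

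At 24 hours the DEX and SAP rats no longer stood apart in Cldn10. It was 25.76, 20.89 and 17.51 FPKM in SAP-24h, 13.99, 13.99 and 26.08 in DEX-24h, 21.06, 12.1 and 22.67 in Emo-24h and 21.12, 10.19 and 16.36 in Sham-24h. In DEX-24h vs SAP-24h the log2 fold change was -0.35 (SE 0.28, adjusted p = 0.474, edgeR). The SAP reference itself moved, as Cldn10 was higher by 0.89 in SAP-24h vs SAP-6h (SE 0.28, adjusted p = 0.0583, edgeR). All SAP-24h rats were above all SAP-6h rats, and groups stood apart for 24% of all genes there. A change in the DEX effect thus holds changes in both the SAP and the DEX rats. The difference between the DEX effects at 24 and 6 hours was -1.66 on the log2 scale (SE 0.39, adjusted p = 0.0786 by edgeR and 0.00518 by DESeq2), and it passed by edgeR without 1 of the 12 libraries, DEX-24h replicate 3 (-2.02, adjusted p = 0.0389). With the other libraries left out in turn it reached -1.46 and adjusted p up to 0.197, and the compared groups alone gave an adjusted p of 0.153. Of the 10 genes 0 were called in this interaction by edgeR (0.138% of all genes), 1 by DESeq2 (1.27%), and 2 at an unadjusted p with a 2-fold change (4.85%). In DEX-24h vs DEX-6h, where 0 of 10 passed (7.14% of all genes), Cldn10 fell by 0.77 (adjusted p = 0.0422) and Pigr by 0.55 (adjusted p = 0.0287), both short of 2-fold. These p were not stable, as the adjusted p (edgeR) reached 0.182 for Cldn10 and 0.147 for Pigr with 1 library left out (log2 fold changes of -1.12 to -0.61 and -0.74 to -0.41). They were 0.060 and 0.0699 in a model of the compared groups alone, and 0.0518 for Cldn10 without the filter on low counts. An adjusted p under 0.05 alone was met by 25.9% of all genes there.

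Muc5ac, the mucin typical of goblet cells, was the least abundant of the 10, and its values rest on few reads. It had 4, 5 and 8 reads in SAP-24h (0.04, 0.04 and 0.07 FPKM), 14, 123 and 55 in DEX-24h (0.11, 1.16 and 0.52 FPKM), 22, 19 and 21 in Emo-24h (0.23, 0.17 and 0.21 FPKM) and 21, 16 and 26 in Sham-24h (0.19, 0.15 and 0.24 FPKM). In Con-24h it had 6, 15 and 22 reads (0.07, 0.15 and 0.26 FPKM). The SAP-24h rats were below every rat of the DEX-24h, Emo-24h and Sham-24h groups and overlapped with Con-24h. Such separation from SAP-24h was seen for 25% of all genes in DEX-24h, 29.3% in Emo-24h and 29.4% in Sham-24h. In DEX-24h vs SAP-24h the log2 fold change was 3.43 (SE 0.97, 10.8-fold, 95% confidence interval 1.42 to 5.43, adjusted p = 0.0313, edgeR's quasi-likelihood test), and it was the 1 gene called of 10, against 3.73% of all genes. Without any 1 of 5 of the 6 libraries the adjusted p rose above 0.05 (0.056 to 0.167, edgeR), the exception being DEX-24h replicate 1 (0.0208), and without DEX-24h replicate 2 the log2 fold change was 2.47. A model of the compared groups alone gave an adjusted p of 0.119 (edgeR).
In SAP-24h vs Sham-24h the log2 fold change of Muc5ac was -1.79 (SE 0.98, adjusted p = 0.233, edgeR), and in Emo-24h vs SAP-24h it was 1.83 (SE 0.98, adjusted p = 0.235). SAP-24h is the shared reference of both drug comparisons. Beside these, the 10 neutrophil genes had summed levels of 4837 to 16720 FPKM in SAP-24h rats, 224.6 to 9431 in Sham-24h rats and 1115 to 3065 in DEX-24h rats. For the 21 ciliated cell genes the sums were 341.0 to 637.5 FPKM in SAP-24h, 696.3 to 811.2 in Sham-24h and 600.1 to 697.9 in DEX-24h. The 10 basal airway cell genes summed to 70.39 to 93.5 FPKM in SAP-24h, 133.2 to 192.4 in Sham-24h and 129.4 to 273.3 in DEX-24h, without overlap between SAP-24h and either, and Krt14 was called in DEX-24h vs SAP-24h (log2 fold change 1.52, SE 0.29, adjusted p = 0.00239, edgeR). Their part in the result was not tested.

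**Figure D4:**
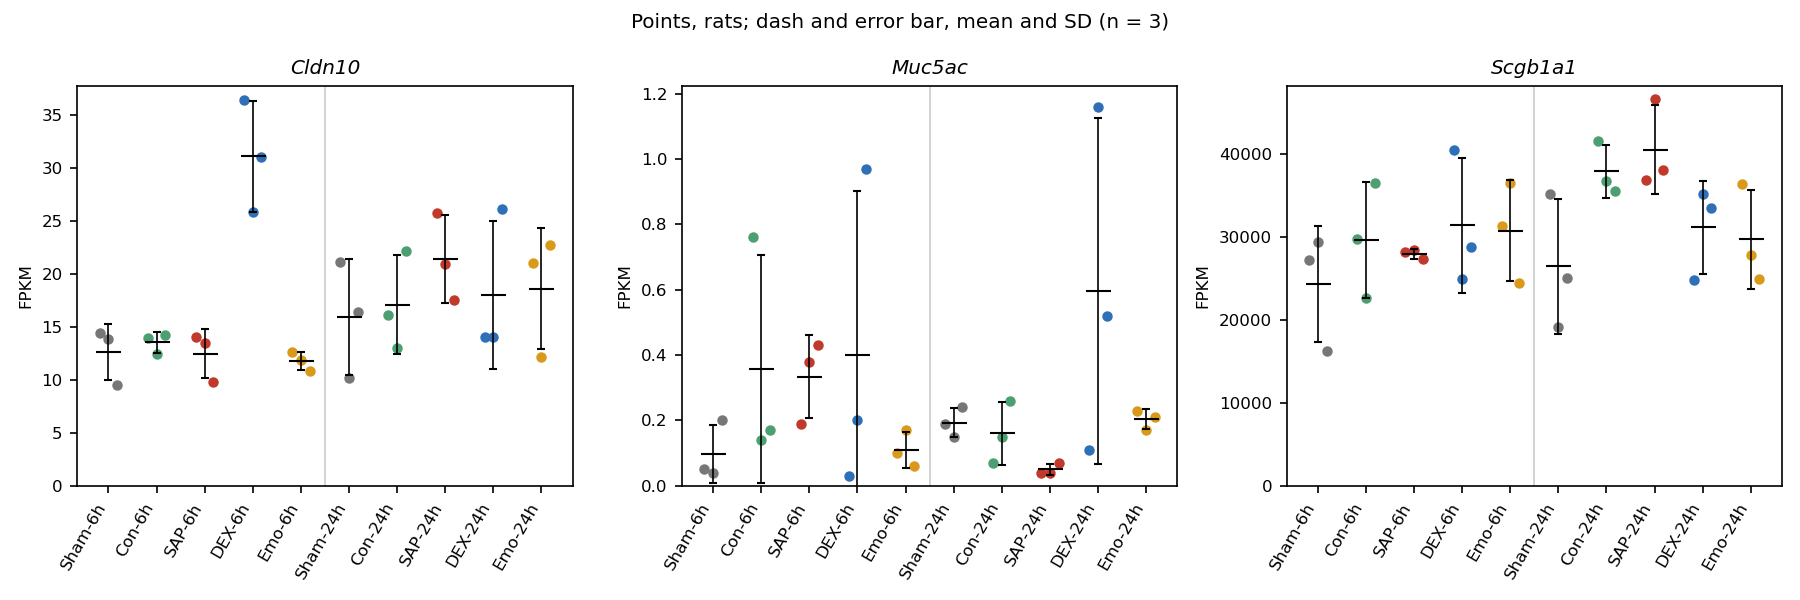
FPKM of Cldn10, Muc5ac and Scgb1a1 in each rat (points), with group mean and SD (dash and error bar, n = 3; a bar that would pass below 0 is clipped at the axis). Cldn10 in DEX-6h lies at 25.85 to 36.38, above all other rats at 6 hours, Muc5ac has its lowest mean in SAP-24h, and Scgb1a1 has its highest mean in SAP-24h.

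Scgb1a1 had its highest group mean in SAP-24h. It was 36900.05, 46741.53 and 38095.83 FPKM there, 35252.65, 19206.51 and 25020.67 in Sham-24h, and 41619.11, 36760.81 and 35562.71 in Con-24h. All SAP-24h rats were above all Sham-24h rats, as for 29.4% of all genes in either direction, and they overlapped with Con-24h. The log2 fold change in SAP-24h vs Sham-24h was 0.75 (SE 0.24, 1.68-fold, adjusted p = 0.0409, edgeR's quasi-likelihood test), short of 2-fold, and 12.4% of all genes had such an adjusted p. Leaving out each library in turn gave 0.58 to 1.01 with adjusted p of 0.0261 to 0.185. The larger fold change and lower p came without Sham-24h replicate 1, and the smaller fold change and higher p without Sham-24h replicate 2. A model of the compared groups alone gave an adjusted p of 0.153 (edgeR). In Con-24h vs Sham-24h it was 0.53 (SE 0.24, adjusted p = 0.150). The share of uniquely mapped reads in the study's mapping statistics was lower in rats given taurocholate than in Sham and Con rats, so read processing and taurocholate cannot be told apart in such comparisons. That share was also higher in every DEX-24h and Emo-24h rat than in every SAP-24h rat. It was lower in every DEX-6h rat than in every SAP-6h rat. Read processing and drug therefore cannot be told apart in these comparisons either, for any gene named here.
Scgb1a1 was 24813.1, 35169.1 and 33568.04 FPKM in DEX-24h and 36420.78, 27897.38 and 24946.11 in Emo-24h, each rat below the SAP-24h rats. Groups stood apart in this way for 25% of all genes in DEX-24h vs SAP-24h and 29.3% in Emo-24h vs SAP-24h, and neither change passed the test. The log2 fold change was -0.47 in DEX-24h vs SAP-24h (SE 0.24, adjusted p = 0.242, edgeR) and -0.61 in Emo-24h vs SAP-24h (SE 0.24, adjusted p = 0.106). From 6 to 24 hours of SAP it was 0.63 (SE 0.24, adjusted p = 0.104).

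Scgb3a2, the secretoglobin of small airways that is also called UGRP1, had its lowest group mean in SAP-24h. It was 402.9, 407.71 and 503.13 FPKM there and 617.63, 711.1 and 733.42 in Sham-24h, without overlap, as for 29.4% of all genes. The log2 fold change was -0.53 (SE 0.30, 95% confidence interval -1.15 to 0.09, adjusted p = 0.253, edgeR). In DEX-24h it was 372.39, 853.69 and 421.95 FPKM, on both sides of the SAP-24h rats. Scgb1a1 and Scgb3a2 therefore had log2 fold changes of opposite sign in this comparison.

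Of the epithelial surface proteins, Muc1 had its highest group mean in Con-24h (211.8 ± 36.8 FPKM, SD, n = 3) and its lowest in DEX-6h (114.9 ± 31.1). In SAP-24h vs Con-24h its log2 fold change was -0.69 (SE 0.26, adjusted p = 0.0535, edgeR), and in Emo-6h vs DEX-6h it was 0.69 (SE 0.26, adjusted p = 0.150). Pigr had its highest mean in DEX-6h (191.8 ± 34.5 FPKM) and its lowest in DEX-24h (129.2 ± 31.6). Bpifb1, a relative of Bpifa1, had its highest mean in DEX-6h (133.5 ± 95.6 FPKM) and its lowest in SAP-24h (21.1 ± 9.25), with a log2 fold change of 1.69 in DEX-24h vs SAP-24h (SE 0.86, adjusted p = 0.241, edgeR). When the 10 groups were ordered by mean, all 9 pairs of neighbours overlapped for each gene except Cldn10, where the DEX-6h rats stood above those of SAP-24h by a gap of less than 1 FPKM.

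**Figure D5:**
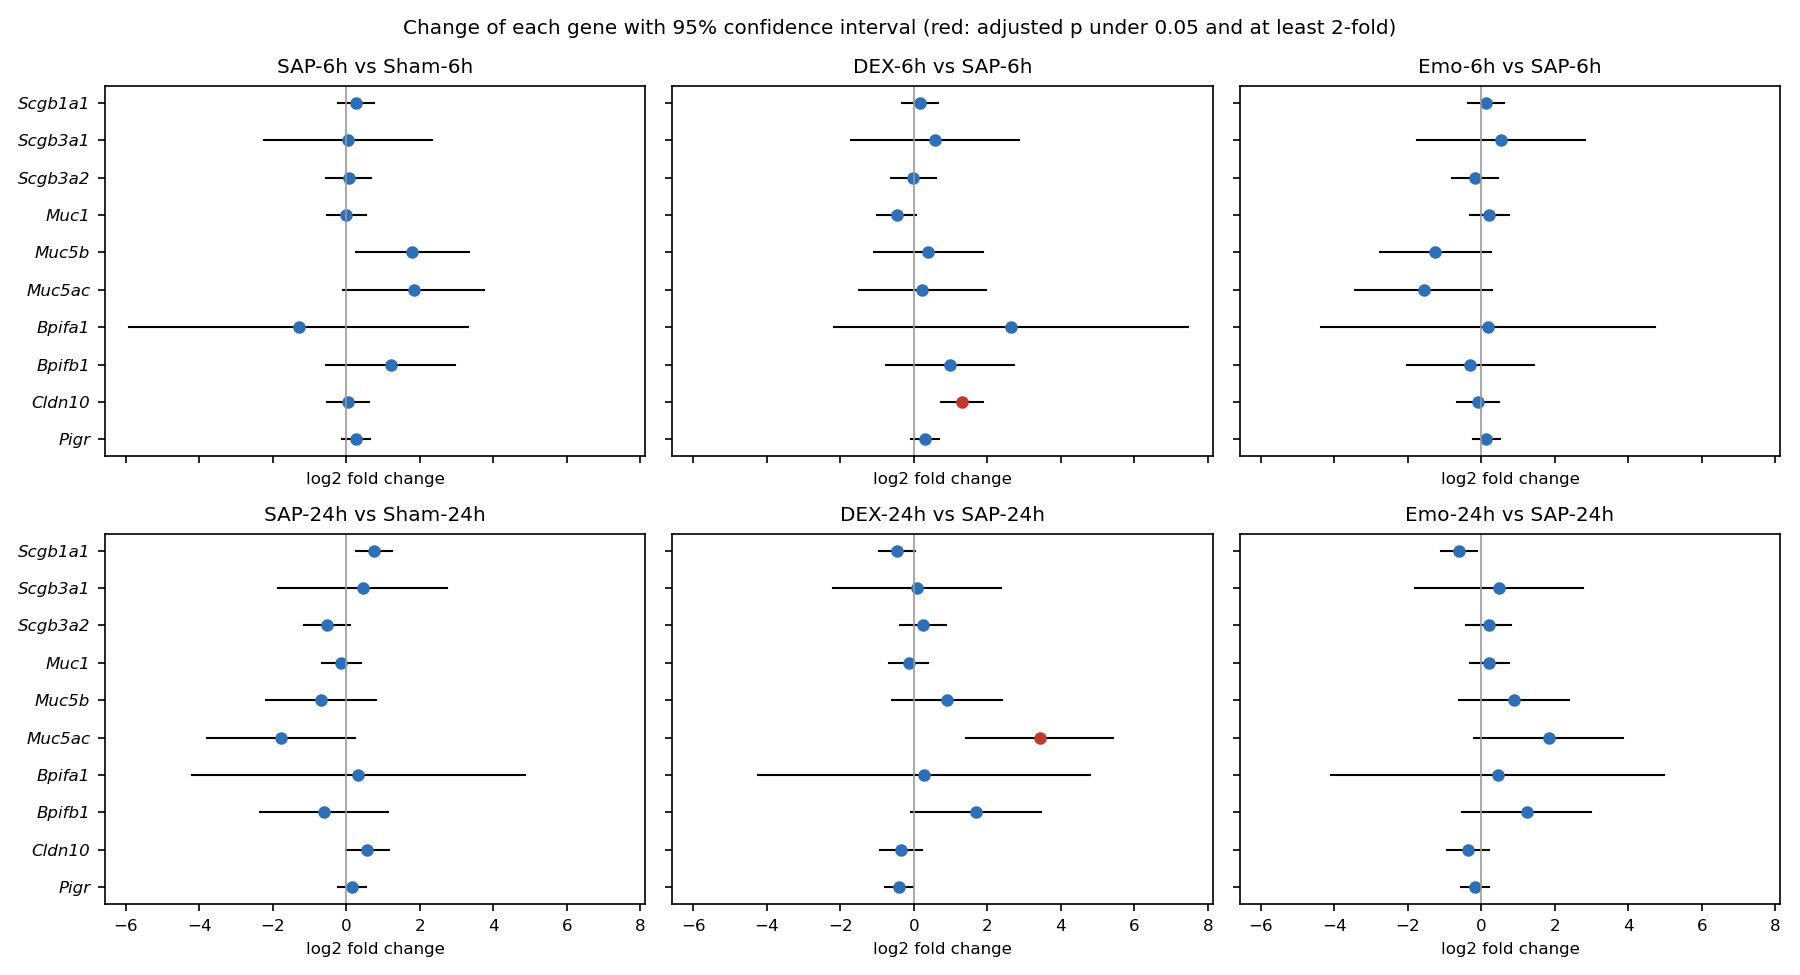
Log2 fold change of each gene (points) with its 95% confidence interval (lines) in 6 comparisons, in red where called. Intervals are short for Scgb1a1, Cldn10 and Pigr and longest for Bpifa1, which reaches from -2.16 to 7.46 in DEX-6h vs SAP-6h, and 2 of 60 points are red.

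In the other comparisons none of the 10 genes was called by edgeR. The share of all genes called was 5% in SAP-24h vs Sham-24h, 6.91% in SAP-24h vs Con-24h, 1% in Con-24h vs Sham-24h, 3.19% in Emo-24h vs SAP-24h and 5.06% in Emo-24h vs DEX-24h. With the compared groups alone it was 3 of 14998, 230 of 14757, 0 of 14957, 0 of 15057 and 816 of 15123 genes, in this order. Between the times the share in the model of all groups was 0.257% for Sham, 0.00628% for Con, 2.42% for SAP and 9.41% for Emo. For the interactions with time it was 0.0314% for SAP against Sham and 1.68% for emodin against SAP. The latter, 268 genes, fell to 1 gene without SAP-6h replicate 2 and to 2 with the compared groups alone. Over all 20 questions together, 3 of 200 tests of the 10 genes were called by edgeR (2.42% of the tests of all genes), 15 at an unadjusted p with a 2-fold change (5.85%) and 5 by DESeq2 (3.23%), which included all 3. At the unadjusted p, SAP-24h vs SAP-6h had 1 of 10 (6.72% of all genes), Emo-6h vs DEX-6h 2 (5.23%), and the interactions with time 2 each, with 6.27% for SAP against Sham and 8.78% for emodin against SAP. The 2 further DESeq2 calls were Cldn10 in the DEX interaction and Muc5ac in SAP-24h vs SAP-6h (3.87% of all genes by DESeq2).

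Other genes of the secretory lining were also called. In the emodin interaction these were 2 of 25 other club and goblet cell genes (Clca1 and Agr2) and 1 of 5 other mucin genes (Muc4). Their log2 fold changes were 5.55, 2.52 and 6.065, with 1.68% of all genes called, and the compared groups alone called 2 of 15494. Of the 25 genes, 4 were called in Emo-24h vs Emo-6h (9.41% of all genes), 1 in Emo-6h vs DEX-6h (Gp2, 1.41%) and 1 in Emo-24h vs DEX-24h (Retnla, 5.06%). Of 25 other club and goblet cell genes tested, 2 were down-regulated in SAP-24h vs Sham-24h, namely Krt19, a keratin of the airway lining (log2 fold change -1.34, SE 0.35, adjusted p = 0.0156, edgeR), and Retnla (-3.30, SE 0.81, adjusted p = 0.0112), and none was up-regulated. This was 2 of 25, where 5% of all genes were called, and the median of the list was -0.25, against -0.03 for all genes. A model of the compared groups alone called 3 of 14998 genes in SAP-24h vs Sham-24h, against 796 of 15934 in the main model. Most calls given for this comparison, here and in the lists below, were therefore not kept there. Against Con-24h 1 of 25 was called (6.91% of all genes), again Krt19 (-1.77, SE 0.35, adjusted p = 0.00165, edgeR). Krt19 was up-regulated in DEX-24h vs SAP-24h (1.53, SE 0.35, adjusted p = 0.00948), where Cyp4b1, a club cell cytochrome P450, was down-regulated (-1.15, SE 0.21, adjusted p = 0.00214), 2 of 25 against 3.73% of all genes. In Emo-24h vs SAP-24h 1 of 25 was down-regulated, Sftpd, a surfactant protein (-1.01, SE 0.29, adjusted p = 0.0367), against 3.19% of all genes. A model of the compared groups alone called 0 of 15057 genes in Emo-24h vs SAP-24h, so the Sftpd call was lost there.
Of 5 other mucin genes tested, 2 were down-regulated in SAP-24h vs Sham-24h, Muc4, a membrane mucin (-3.63, SE 1.10, adjusted p = 0.0325, edgeR), and Emcn, an endothelial sialomucin (-1.19, SE 0.24, adjusted p = 0.00319), against 5% of all genes. With the compared groups alone, only 3 of 14998 genes were called in this comparison. In SAP-24h vs Con-24h only Muc4 was called (-3.74, SE 1.10, adjusted p = 0.0177, edgeR), against 6.91% of all genes. Muc4 was up-regulated in DEX-24h vs SAP-24h (3.79, SE 1.09, adjusted p = 0.0346) and in Emo-24h vs SAP-24h (3.99, SE 1.09, adjusted p = 0.0279), the 1 of 5 called in each, against 3.73% and 3.19% of all genes. The emodin call of Muc4 was lost with the compared groups alone, where 0 of 15057 genes were called. All 8 heart muscle genes had positive log2 fold changes in both comparisons, none called (median 0.95 with DEX, 1.74 with emodin). Their summed level ran from 127.6 up to 264.2 FPKM for Emo-24h rats. SAP-24h rats had 7.46 up to 136.2 and DEX-24h rats 19.53 up to 157.6. The part of the tissue carrying heart muscle genes in the values of Muc4 was not tested.
Of 22 transcription factors of airway secretory cells, 2 were up-regulated in SAP-24h vs Sham-24h (5% of all genes were called) and none was down-regulated, and against Con-24h only Cebpd was called (1 of 22, log2 fold change 1.42, SE 0.42, adjusted p = 0.0188, edgeR, with 6.91% of all genes). The 2 were Cebpb (1.55, SE 0.28, adjusted p = 0.00203, edgeR) and Cebpd (2.13, SE 0.43, adjusted p = 0.00355), which also act in inflammation in other cell types. Both were down-regulated in Emo-24h vs SAP-24h, with log2 fold changes of -1.48 for Cebpb (adjusted p = 0.00465) and -2.04 for Cebpd (adjusted p = 0.00707), 2 of 22 against 3.19% of all genes. Both calls were lost in a model of the compared groups alone, where 0 of 15057 genes were called. Of the 10 neutrophil genes, 10 were up-regulated in SAP-24h vs Con-24h (median log2 fold change 4.92, with sums of 4837 to 16720 against 143.7 to 1037 FPKM). In SAP-24h vs Sham-24h 1 of the 10 was called (median 1.77), and in Emo-24h vs SAP-24h 0 of 10 were (median -1.04). The part of neutrophils in the values of Cebpb and Cebpd was not tested. Of the 21 ciliated cell genes, 1 (Stoml3) was called in SAP-24h vs Sham-24h (-2.75, SE 0.86, adjusted p = 0.0373, edgeR), against 5% of all genes. At 6 hours it was called in the other direction, in SAP-6h vs Sham-6h (4.28, SE 0.92, adjusted p = 0.0457), and the difference between the times was called too (-7.04, SE 1.26, adjusted p = 0.0471). This was 1 of 21 in each, against 0.22% and 0.0314% of all genes. Neither call was kept with the compared groups alone, where 0 of 14862 and 0 of 15433 genes were called. Relative to SAP-24h, Stoml3 was up-regulated in DEX-24h (3.12, SE 0.86, adjusted p = 0.0271) and in Emo-24h (2.80, SE 0.86, adjusted p = 0.0438). In DEX-24h 2 of 21 ciliated cell genes were called, with Ccdc39 (1.05), against 3.73% of all genes, and 21 of 21 were positive. In Emo-24h 1 of 21 was called, against 3.19%, and 18 were positive. The Emo-24h call was lost with the compared groups alone, where 0 of 15057 genes were called.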

How the data were processed

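Lung RNA of 30 rats was sequenced by the authors from directional libraries of polyadenylated RNA as paired reads. The authors clipped the reads with the FASTX-Toolkit, mapped them with TopHat2 to the Ensembl rat genome rat_ensembl_v6 and discarded reads with several positions, and the counting program is not given in the sources used here. The authors deposited counts per gene, which are raw whole numbers for 22914 genes, and FPKM values with 2 decimals for 22907 genes. Coordinates of promoters are those of another build (GRCr8) and were used for sequences only.

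Counts were tested in R 4.3.3 with edgeR 4.0.16 (filterByExpr with a minimum count of 10 and a minimum total of 15, TMM scaling, 1 quasi-likelihood model of 10 groups), with Benjamini-Hochberg adjustment over 15934 genes, and the steps were tested on simulated data. FPKM served for levels, on the log2(FPKM + 1) scale for spread and correlations, with 100000 permutations (Python 3.11.15, numpy 2.4.6, pandas 2.3.3, scipy 1.17.1, matplotlib 3.10.9). Depth was 16813949 to 34692306 reads per library. Between pairs of rats of a group the chi-square per degree of freedom, pooled over genes, was 35.4 to 197, above that of counting alone. Genes with many reads weigh most in it, so it is no variance ratio for a single gene. Named genes were the 10 genes, the 5 nearest genes of each, and at most 3 called genes per list and comparison, and 8 genes of the lists were not matched. Alternatives were RLE scaling, DESeq2 1.42.0, no filter, the compared groups alone, an unadjusted p, a replicate block, TMM CPM, a pseudocount of 0.1, Spearman's rho and each library left out. The genes and lists were chosen with earlier results of these data known.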

Additional observations from a re-analysis of the deposited data

Results flagged for a closer look

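Muc5ac had the opposite direction under emodin at the 2 times. Relative to SAP, all 3 Emo-6h rats were lower (0.1, 0.17 and 0.06 FPKM against 0.19, 0.38 and 0.43) and all 3 Emo-24h rats were higher (0.23, 0.17 and 0.21 FPKM against 0.04, 0.04 and 0.07). Groups without overlap were seen for 17.9% of all genes in Emo-6h vs SAP-6h and 29.3% in Emo-24h vs SAP-24h, and neither change of Muc5ac passed (adjusted p = 0.450 and 0.235, edgeR). The difference between the effects was 3.40 on the log2 scale (SE 1.33, adjusted p = 0.127, edgeR's quasi-likelihood test), and it did not pass the threshold under any library left out (adjusted p of 0.102 to 0.241). The counts behind it were 4 to 48 reads per library. In the same interaction 20 of 21 ciliated cell genes had positive log2 fold changes (median 0.73, 2 called, with 1.68% of all genes). So had 10 of 10 basal airway cell genes (median 2.05, 0 called) and 8 of 8 heart muscle genes (median 3.00, 0 called), but 3 of 10 alveolar type 2 cell genes (median -0.34). The basal sums were 116.4 to 163.9 FPKM in Emo-24h and 70.39 to 93.5 in SAP-24h. The part of these cells in the result was not tested. Groups of 3 are too small for a search for single outlying rats.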

How the results depend on the processing

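Over 20 questions, edgeR with RLE scaling, no filter on low counts and the replicate block each gave 3 calls, the same genes in the same comparisons. The replicate block gave a log2 fold change of 1.29 for Cldn10 in DEX-6h vs SAP-6h and 3.42 for Muc5ac in DEX-24h vs SAP-24h. Replicate numbers named different rats, and 8 of 30 libraries correlated best with their own number, so the numbers did not pair them, and the block changed no other call. A model of the compared groups alone gave 0 members in DEX-24h vs SAP-24h. DESeq2 gave 1 in SAP-24h vs SAP-6h and 1 in the DEX interaction. An unadjusted p gave 1 member in SAP-6h vs Sham-6h and in SAP-24h vs SAP-6h, 3 in Con-6h vs Sham-6h, and 2 in Emo-6h vs DEX-6h and in each of the 3 interactions, where 1.79% to 8.78% of all genes passed. The cause of these changes was not tested.

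With single libraries left out, the count lay between 0 and 1 in DEX-6h vs SAP-6h, DEX-24h vs SAP-24h, DEX-24h vs DEX-6h, Emo-24h vs Emo-6h, SAP-24h vs Sham-24h and the DEX and emodin interactions, and between 0 and 2 in Emo-6h vs DEX-6h. Muc5b passed in Emo-6h vs DEX-6h, Emo-24h vs Emo-6h and the emodin interaction without Emo-6h replicate 2, Cldn10 in DEX-24h vs DEX-6h and the DEX interaction without DEX-24h replicate 3, and Scgb1a1 in SAP-24h vs Sham-24h without Sham-24h replicate 1. Of 138 such counts 122 did not change. Spearman's rho in place of Pearson's r was 0.93 between Muc1 and Ptk7 and 0.82 between Bpifa1 and Tnnt2, the latter again over both sets of libraries. Under rho, 1 of the 5 nearest genes was shared for Bpifa1 and Bpifb1, 2 for Scgb1a1, Scgb3a2, Cldn10 and Pigr, and 3 for Scgb3a1, Muc1 and Muc5b. Muc5ac, with 3 to 123 reads per library, is the gene most limited by depth, and 3 rats a group leave wide intervals for Bpifa1.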
